A study of Mus musculus with 9 samples.

Results

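The Shank, Homer and Dlgap families comprise 10 scaffold genes here, Shank1 to Shank3, Homer1 to Homer3 and Dlgap1 to Dlgap4. They were taken by gene symbol from the 55471 Ensembl gene IDs of the count table, and all 10 were found, each with 1 row. RNA was sequenced from the gastrocnemius, a calf muscle, of newborn mice at postnatal day 0 to 1, with 1 library per mouse. All 9 are labelled with a C57BL/6 background, and per the methods the *Shank3Δ11(-/-)* mice were bred from heterozygous parents of the substrain C57BL/6JRj. Of the 9 libraries, 5 (KO1 to KO5) came from *Shank3Δ11(-/-)* mice, in which exon 11 of Shank3 is deleted on both alleles. The other 4, WT1 to WT4, came from *Shank3(+/+)* mice, and no treatment, sex or transgene is labelled. The comparison asked which of these genes muscle expresses and whether any paralog or partner was higher or lower where Shank3 lacks exon 11. It sets the 4 *Shank3(+/+)* mice against KO1, KO3 and KO5, since the study left out KO2 and KO4 for low read numbers, and the members are also described with these mice included. By total gene counts KO2 is the second lowest of the 9 mice, KO4 the highest and KO5, which was kept, the lowest, and raw reads were not analysed here.

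Shank proteins are large scaffolds best known from the postsynaptic density of excitatory synapses. Their PDZ domain binds Dlgap proteins, which link them to membrane-associated guanylate kinases such as Dlg4 (PSD-95), and their proline-rich region binds Homer. Homer proteins bind proline-rich motifs in metabotropic glutamate receptors, inositol trisphosphate receptors, ryanodine receptors, TRPC channels and NFAT factors, and in striated muscle Homer is known from the Z-disc.

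Exon 11 of Shank3 is given with the aligned exons of its paralogs, because it is the deleted part and because reads from it could only be mistaken for a paralog if the sequences were alike. The labels give no coordinates of the deletion. The exon was numbered along the longest annotated transcript, Shank3-203, which has 22 exons and 7365 bases. There it spans chr15:89524026-89524219 of mm10 on the + strand, 194 bases that are all coding and leave 2 bases over on division by 3. The aligned exon of Shank1 is exon 12 of Shank1-203 at chr7:44327033-44327226 (+ strand, 194 bases), and that of Shank2 is exon 12 of Shank2-203 at chr7:144186820-144186989 (+ strand, 170 bases). Capitals in Shank1 and Shank2 mark bases identical to the aligned base of Shank3, and capitals in Shank3 mark the 78 bases identical in all 3 genes.
Shank3 exon 11: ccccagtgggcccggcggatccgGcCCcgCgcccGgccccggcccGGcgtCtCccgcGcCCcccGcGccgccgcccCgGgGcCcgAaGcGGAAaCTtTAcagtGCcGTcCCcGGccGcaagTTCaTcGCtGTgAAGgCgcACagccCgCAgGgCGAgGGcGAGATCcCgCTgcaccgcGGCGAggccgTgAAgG
Shank1 exon 12: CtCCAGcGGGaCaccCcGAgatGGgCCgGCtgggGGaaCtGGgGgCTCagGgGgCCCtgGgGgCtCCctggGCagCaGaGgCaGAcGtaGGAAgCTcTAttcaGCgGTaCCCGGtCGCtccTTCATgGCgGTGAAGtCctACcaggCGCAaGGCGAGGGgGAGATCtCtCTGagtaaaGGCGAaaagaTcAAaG
Shank2 exon 12: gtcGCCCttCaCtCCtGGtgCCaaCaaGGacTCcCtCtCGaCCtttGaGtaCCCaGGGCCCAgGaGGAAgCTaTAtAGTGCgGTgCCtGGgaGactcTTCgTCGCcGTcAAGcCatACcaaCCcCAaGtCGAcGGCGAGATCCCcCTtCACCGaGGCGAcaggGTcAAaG
Shank1 matched Shank3 at 113 bases, 59.8% of the aligned positions, and Shank2 at 107 bases, or 64.8%. No member shared a run of 50 bases with another member in its annotated transcripts, so reads of this length that match exactly can be assigned to 1 of the 10 genes.

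Of the 9 annotated Shank3 transcripts, 5 contain exon 11 and 3 start after it. The exon makes up 2.63% of Shank3-203 and 2.11% of all exon bases of the gene. If the reads of exon 11 alone were lost, the gene's count would change by -0.04 on the log2 scale by the first share and by -0.03 by the second. A gene-level count therefore does not check the deletion, and the level of Shank3 described here is that of the whole gene.

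**Figure D1:**
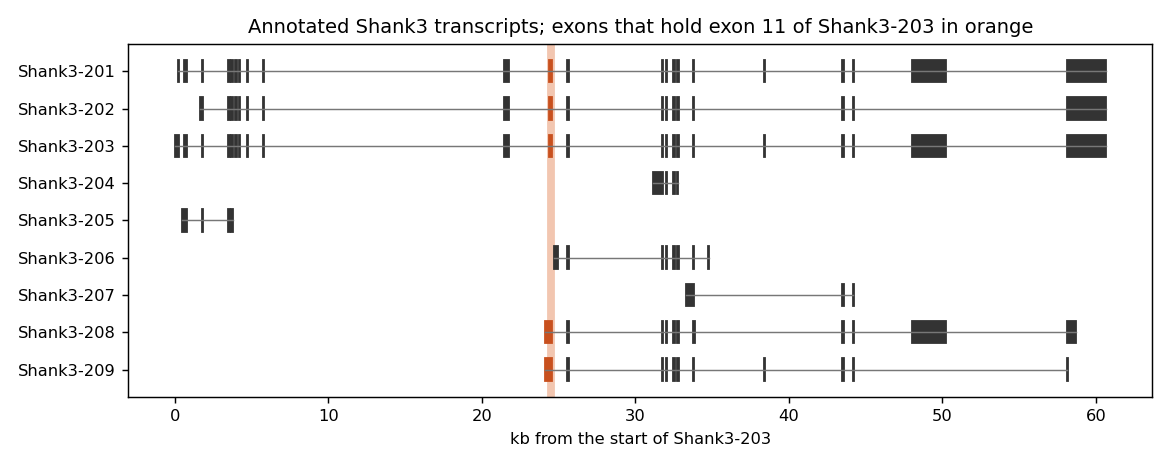
Annotated Shank3 transcripts (rows, GENCODE M21) with exons as boxes against the distance in kb from the start of Shank3-203, exons that contain exon 11 in orange. Exon 11 lies within 5 of the 9 transcripts, and in the lowest 2 rows it is part of a longer first exon.

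Total counts ranged from 26444372 in KO5 to 40471957 in KO4 (median 31435732). Muscle fibre markers (Acta1, Ckm, Des, Ttn, Ryr1, Cacna1s, Myh3, Myh8) summed to between 47070 and 55165 CPM in every mouse, where CPM are counts relative to the TMM-adjusted library size. Neuronal markers were low, with all 8 summing to between 29.5 and 44.2 CPM, mostly Gap43 and Stmn2, and with Snap25 at 0 to 0.308 CPM and Tubb3 at 0.239 to 0.798 CPM. The 5 adipocyte markers summed to 1127 CPM in KO5 and to between 186 and 403 CPM in the other mice, and the 6 Schwann cell markers to 461 CPM in KO5 and 133 to 278 CPM in the others. In 3 against 4 mice edgeR gave an unadjusted p below 0.05 for 4 of 4 tested adipocyte and 3 of 6 Schwann cell markers, and for 2.08% of all genes tested, and no marker of either list was at 0 in all mice. The 4 cartilage markers were highest in KO4, at 202 CPM against at most 68.6 CPM elsewhere. Keratinocyte markers, also 4, were highest in WT4, at 46.7 CPM against at most 22.4 CPM elsewhere. Xist, the RNA of the inactive X chromosome, exceeded 100 CPM in WT3, WT4, KO3 and KO5 and was no higher than 3.23 CPM in the rest.

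Each family was dominated by 1 or a pair of paralogs in newborn muscle. To compare levels between genes, CPM were divided by the exon length of each gene in kb (RPKM). In *Shank3(+/+)*, Dlgap4 was the most abundant of the 10 genes at 12.1 ± 1.57 RPKM (SD, n = 4), above 78.5% of all genes tested. Homer3 followed at 6.87 ± 0.916 RPKM, then Shank3 at 3.72 ± 0.316 and Homer1 at 3.54 ± 0.655 RPKM, both near the middle of all genes tested. Homer2 stood at 1.57 ± 0.124 RPKM, Shank1 at 0.902 ± 0.155 and Dlgap3 at 0.586 ± 0.173 RPKM. Dlgap1 (0.165 ± 0.0270 RPKM) and Shank2 (0.102 ± 0.0245 RPKM) were lower than all but 4.94% and 2.12% of the genes tested. Dlgap2 had 25 counts in all 9 mice together, 1 to 5 in each, and did not pass the filter on low counts. Dlgap5, a mitotic spindle protein that completes the Dlgap family by name, was at 1.90 ± 0.393 RPKM.

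Most neighbours in this order were separated in every one of the 9 mice. Shank3 and Homer1 were not, since Shank3 was the higher in 3 of 9 mice and in 1 of 4 *Shank3(+/+)* mice. Nor were Shank1 and Dlgap3, where Shank1 was the higher in 7 of 9 mice. When the length of the longest transcript was used in place of all exon bases, Homer1 (7.43 RPKM) ranked above Shank3 (4.64 RPKM) in 9 of 9 mice, while Homer3 was above Homer1 in 8 of 9 and Dlgap3 above Dlgap1 in 7 of 9. The order of Shank3 and Homer1 thus depended on the length assumed, and isoforms could not be told apart in gene counts.

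**Figure D2:**
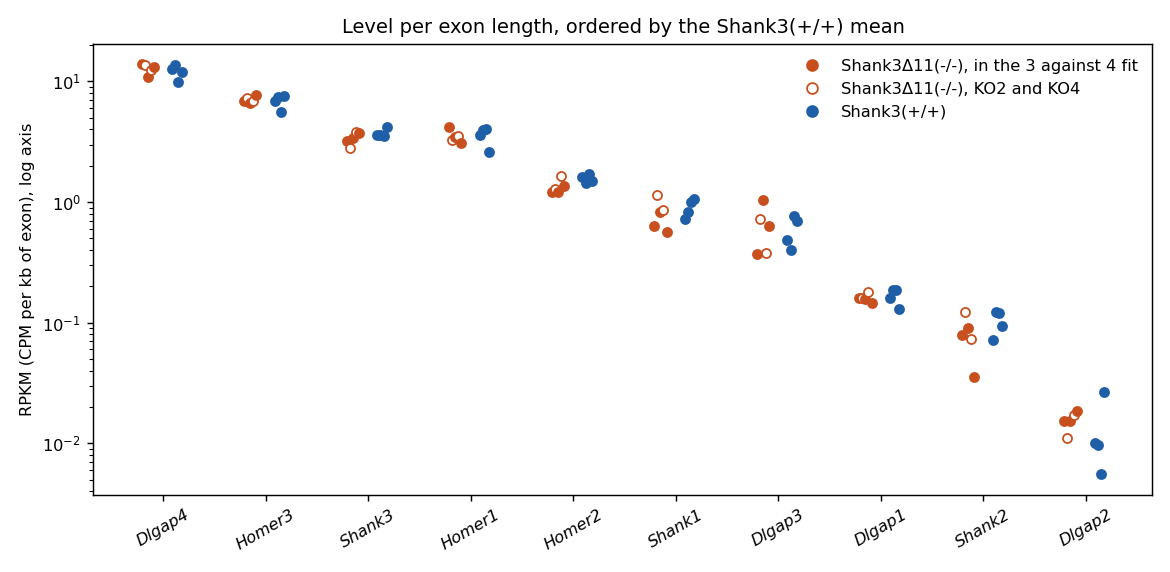
RPKM (log axis) of the 10 scaffold genes, 1 point per mouse, ordered by the *Shank3(+/+)* mean; filled orange points are KO1, KO3 and KO5, open orange points KO2 and KO4, blue points *Shank3(+/+)*. Dlgap4 was the highest in all 9 mice and Dlgap2 the lowest, and the points of both genotypes lie at similar heights within each gene.

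Shank3 supplied most of the Shank RNA in both genotypes. For KO1, KO3 and KO5 its share of the summed Shank RPKM was 81.7%, 78.6% and 86.3%, with 68.9% in KO2 and 80.3% in KO4. In WT1 to WT4 it was 81.9%, 78.9%, 75.9% and 78.5%. The genotypes overlapped. KO2 stood apart, with the lowest Shank3 level of all mice, at 2.80 RPKM, and the highest share of Shank1. Shank1 made up 28.1% of its Shank RNA, against at most 21.5% in the other 8 mice. Shank2 made up between 0.813% and 3.03%.

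Shank3 (ENSMUSG00000022623, chr15:89499623-89560261) was counted with 758 to 1334 reads per mouse. KO1 had 29.4 CPM, KO3 31.0 and KO5 34.4 CPM, while KO2 had 25.8 and KO4 35.1 CPM. In *Shank3(+/+)* it was 32.9 CPM in both WT1 and WT2, 32.5 in WT3 and 38.5 in WT4. The lowest values were those of KO2, KO1 and KO3, while KO5 and KO4 lay within the *Shank3(+/+)* range, and WT4 was above all other mice. The log2 fold change was -0.12 with a standard error of 0.11 and a 95% interval from -0.38 to 0.13 (edgeR p = 0.308, exact permutation test p = 0.343). In all 9 mice it was -0.14 (interval -0.37 to 0.10, edgeR p = 0.233, exact permutation test p = 0.262). These intervals hold both no change and the -0.04 that loss of the exon's own reads would give, and they reach down to a decrease of 23.0% in 3 against 4 mice and 22.7% in 5 against 4. No rise above 1.09-fold lay within the interval of the 7 mice. With a mouse left out the value ranged from -0.19 (without KO5) to -0.06 (without WT4), with -0.07 without KO1.

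Shank1 (ENSMUSG00000038738, chr7:44310253-44360572), a paralog otherwise best known from brain, was lower in the 3 *Shank3Δ11(-/-)* mice at an unadjusted p below 0.05 but not in all 5. It was at 6.71 CPM in KO1, 8.69 in KO3 and 5.89 in KO5, and at 11.99 in KO2 and 9.04 in KO4. The *Shank3(+/+)* mice had 7.55, 8.75, 10.6 and 11.1 CPM. KO1 and KO5 were below every *Shank3(+/+)* mouse, KO3 and KO4 were within their range, and KO2 was the highest of the 9. The log2 fold change was -0.43 (standard error 0.19, 95% interval from -0.85 to just below 0, edgeR p = 0.0493 and FDR = 1.00, exact permutation test p = 0.114). With KO4 added it was -0.32, and with both KO2 and KO4 -0.16 (interval -0.59 to 0.27, edgeR p = 0.431, exact permutation test p = 0.437). KO5, the mouse with the lowest Shank1, also had the highest adipocyte and Schwann cell marker sums, whose part in the result was not tested. Without it the log2 fold change was -0.31 and the unadjusted p of edgeR was no longer below 0.05. The same held without KO1 (-0.38), WT2 (-0.46), WT3 (-0.36) or WT4 (-0.34).

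Shank2 (ENSMUSG00000037541, chr7:144001928-144424494) was near the limit of the filter, with 10 to 45 counts per mouse. It ranged from 0.380 CPM in KO5 to 0.976 in KO3 among the 3 *Shank3Δ11(-/-)* mice and from 0.770 to 1.33 CPM in *Shank3(+/+)*. KO2 had 1.33 and KO4 0.789 CPM. The groups overlapped, and the log2 fold change of -0.58 had an interval from -1.36 to 0.20 (edgeR p = 0.129, exact permutation test p = 0.171). In all 9 mice it was -0.35 (interval -1.03 to 0.34, edgeR p = 0.289, exact permutation test p = 0.310). Leaving out a mouse moved the value in 3 against 4 mice between -0.83 (without KO3) and -0.28 (without KO5).

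Neither paralog of Shank3 was therefore measured at a higher mean in *Shank3Δ11(-/-)*. The upper end of the interval was 0.997-fold for Shank1 and 1.15-fold for Shank2 in 3 against 4 mice, and 1.21-fold and 1.26-fold in 5 against 4. Larger rises lay outside these intervals, which carry no adjustment for the number of genes. Summed over the 3 Shank genes, KO1 had 3.91 RPKM, KO3 4.29 and KO5 4.34 RPKM, while KO2 had 4.07 and KO4 4.75 RPKM. In *Shank3(+/+)* it was 4.37, 4.54, 4.66 and 5.34 RPKM. The sums of KO1, KO2, KO3 and KO5 were below every *Shank3(+/+)* mouse, KO5 by a narrow margin, and KO4 was above 3 of them. Of single genes, 2.84% did not overlap in 3 against 4 mice and 1.3% were lower in this way, and the sum itself was not tested.

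**Figure D3:**
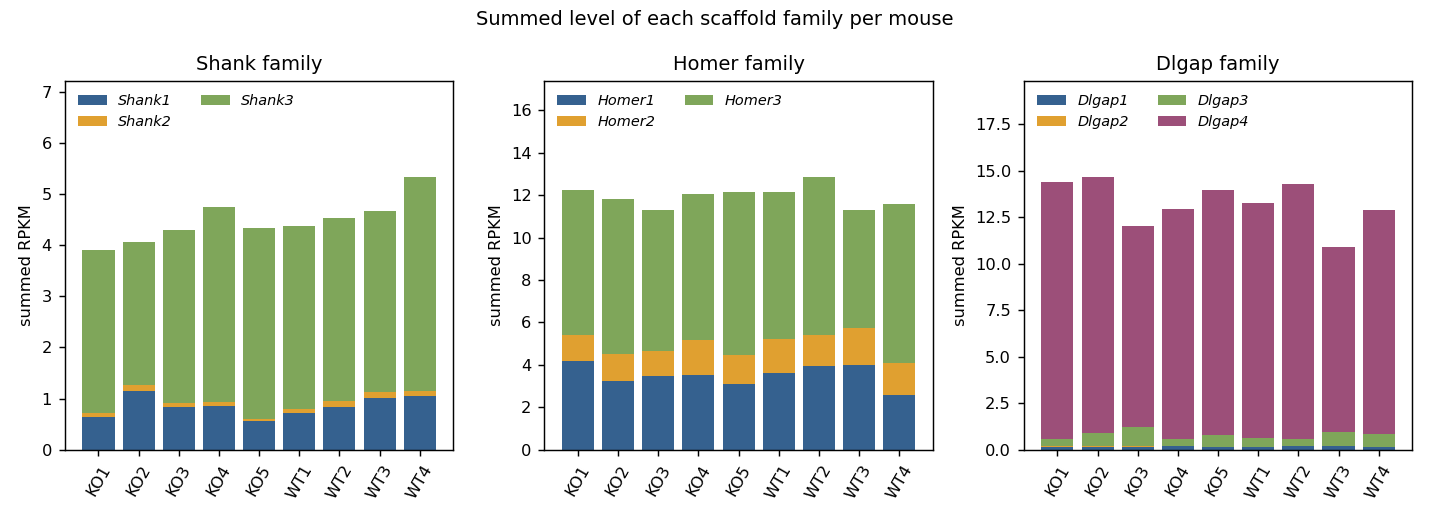
Summed RPKM of the Shank, Homer and Dlgap genes in each mouse (bars, stacked by gene). With all exon bases as the length, Shank3, Homer3 and Dlgap4 are the largest segments of their families in all 9 mice. The Shank sum is lowest in KO1 at 3.91 and highest in WT4 at 5.34 RPKM.

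The Homer genes gave a sum that hardly differed between mice, from 11.3 to 12.9 RPKM. Homer3 made up 49.3% to 64.8% of it, Homer1 22.4% to 35.5% and Homer2 9.90% to 15.2%. These shares depended on the length assumed. With that of the longest transcript, Homer3 made up 41.4% to 58.1% and Homer1 31.9% to 47.4%, and Homer1 was the larger in WT3. Only Homer2 separated KO1, KO3 and KO5 from *Shank3(+/+)*.

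Homer2 (ENSMUSG00000025813, chr7:81600481-81707527, - strand), a long, coiled-coil Homer that is known to bind NFAT factors, was at 15.3 CPM in KO1, 15.2 CPM in KO3 and 17.1 CPM in KO5. KO2 had 16.1 and KO4 20.8 CPM. In *Shank3(+/+)* the level was 20.4, 18.3, 21.7 and 18.7 CPM in WT1 to WT4. All *Shank3Δ11(-/-)* mice except KO4 were below every *Shank3(+/+)* mouse, and KO4 was above 3 of the 4. The means of the 3 and 4 mice were 15.9 ± 1.08 and 19.8 ± 1.57 CPM, a log2 fold change of -0.32 with a standard error of 0.12 and an interval from -0.58 to -0.07 (edgeR p = 0.0190 and FDR = 1.00, exact permutation test p = 0.0286). That p is the smallest that 3 against 4 mice allow. With KO2 added the log2 fold change was -0.32 (edgeR p = 0.0105), with KO4 added -0.20 (p = 0.127), and with both -0.22 (interval -0.48 to 0.03, edgeR p = 0.0752, exact permutation test p = 0.0714). Without KO1, KO3, WT1 or WT3 the log2 fold change was -0.30, -0.29, -0.30 and -0.27 and the unadjusted p of edgeR was above 0.05. Without KO5, the mouse with the highest adipocyte and Schwann cell marker sums, the log2 fold change was -0.38 and the p stayed below 0.05. In whole muscle, fewer cells that express a gene and less RNA per cell cannot be told apart.

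The mean of Homer2 was lower in *Shank3Δ11(-/-)* at either level of Xist, though KO4, with low Xist, was above both WT1 and WT2. Among mice with high Xist, the 2 *Shank3Δ11(-/-)* mice were lower by 0.32 in mean log2 CPM, with mean CPM of 16.2 against 20.2. Among those with low Xist, KO1 was lower by 0.33 than the mean of WT1 and WT2, and by 0.16 when KO2 and KO4 were averaged with it. For Shank1 the same differences were -0.59 with high Xist and -0.27 with low Xist, and 0.15 with KO2 and KO4. These strata hold 1 to 3 mice a genotype and were not tested.

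An annotated antisense gene, Gm44570, shares 525 exon bases with Homer2 on the opposite strand, and whether the counting used strand is not given in the sources used here. Gm44570 was at 1.28 CPM in KO1, 1.67 in KO3 and 2.13 in KO5. KO2 had 1.87 and KO4 1.76 CPM, and *Shank3(+/+)* mice had 2.16, 2.19, 2.25 and 2.67 CPM. All 5 *Shank3Δ11(-/-)* mice were below all 4 *Shank3(+/+)* mice (log2 fold change -0.41, edgeR p = 0.0425 and FDR = 1.00, exact permutation test p = 0.0159), with -0.46 in 3 against 4 mice (edgeR p = 0.0683 and FDR = 1.00). In 5 against 4 mice 0.363% of all genes tested were lower without overlap. Reads of the shared bases could belong to either gene if strand was not used, and 3.07% of the 50-base runs of Homer2 also occur in another gene.

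Homer1 (ENSMUSG00000007617, chr13:93299635-93405129), whose short form is an immediate early gene product in neurons and whose long forms bind TRPC channels, was at 50.04 CPM in KO1, 41.5 in KO3 and 37.0 in KO5. KO2 had 38.8 and KO4 42.3 CPM, and *Shank3(+/+)* mice 43.3, 47.4, 48.0 and 31.1 CPM. The highest value was from KO1 and the lowest from WT4, with the other mice between them. The log2 fold change was 0.01 (interval -0.35 to 0.36, edgeR p = 0.970, exact permutation test p = 0.857), and -0.02 in all 9 mice, so neither genotype was higher in both comparisons. Short and long Homer1 forms were counted together.

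Homer3 (ENSMUSG00000003573, chr8:70282827-70294361), known from Purkinje cells in brain, ranged from 22.8 to 26.6 CPM in the 5 *Shank3Δ11(-/-)* mice and from 19.1 to 25.9 CPM in *Shank3(+/+)*. Its log2 fold change was 0.03 (interval -0.26 to 0.33, edgeR p = 0.809, exact permutation test p = 0.800), and 0.04 in all 9 mice. The RNA helicase gene Ddx49 overlaps it on the opposite strand over 874 exon bases at a mean of 29.8 CPM, and 21.01% of the 50-base runs of Homer3 occur in Ddx49. Reads of these bases could belong to either gene.

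The ratio of Homer2 to Homer3 in CPM was 0.649, 0.666 and 0.644 for KO1, KO3 and KO5, with 0.640 in KO2 and 0.882 in KO4. In *Shank3(+/+)* it was 0.858, 0.710, 1.13 and 0.723. As for Homer2 alone, 4 of the 5 *Shank3Δ11(-/-)* mice were below all *Shank3(+/+)* mice and KO4 was not. For Homer2 to Homer1 the ratios overlapped, at 0.306 to 0.493 in *Shank3Δ11(-/-)* and 0.386 to 0.602 in *Shank3(+/+)*.

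Dlgap4 made up 89.9% to 96.2% of the summed Dlgap RPKM in every mouse. The gene (ENSMUSG00000061689, chr2:156613705-156764363) encodes a broadly expressed member of the family. It was at 117 CPM in KO1, 91.1 in KO3 and 111 in KO5, at 116 in KO2 and 104 in KO4, and at 107, 116, 84.0 and 101 CPM in *Shank3(+/+)*. KO3 and WT3 were the lowest of their genotypes and the ranges overlapped almost fully. The log2 fold change of 0.05 had an interval from -0.24 to 0.34 (edgeR p = 0.696, exact permutation test p = 0.657), and in all 9 mice it was 0.08 (interval -0.16 to 0.32).

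Dlgap3 (ENSMUSG00000042388, chr4:127169204-127237022), known from striatal synapses, varied most among the tested members apart from Shank2, by 2.79-fold between the lowest and the highest mouse. It was at 1.69 CPM in KO1, 4.72 in KO3 and 2.89 in KO5, at 3.26 in KO2 and 1.71 in KO4, and at 2.19, 1.80, 3.45 and 3.16 CPM in *Shank3(+/+)*. KO1 and KO3 were the lowest and the highest of all mice. The 4 mice with high Xist had 2.89 to 4.72 CPM and the others 1.69 to 3.26 CPM, a difference that was seen after the values and was itself not tested. The log2 fold change was 0.22 (standard error 0.34, interval -0.54 to 0.98, edgeR p = 0.530, exact permutation test p = 0.743), so a rise of up to 1.97-fold or a decrease of 31.0% lay within it. In all 9 mice it was 0.11 (interval -0.57 to 0.78, edgeR p = 0.737, exact permutation test p = 0.937). With the level of Xist as a covariate the value in 3 against 4 mice was 0.02. The sign without it rested on KO3, without which the log2 fold change was -0.22.

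Dlgap1 (ENSMUSG00000003279, chr17:69969073-70821413) ranged from 2.58 to 3.23 CPM in *Shank3Δ11(-/-)* and from 2.31 to 3.34 CPM in *Shank3(+/+)*. Its log2 fold change was -0.11 (interval -0.53 to 0.32, edgeR p = 0.583, exact permutation test p = 0.571), and in all 9 mice -0.04 (interval -0.38 to 0.31, edgeR p = 0.817, exact permutation test p = 0.794). With a mouse left out it ranged from -0.21 (without WT4) to -0.04 (without WT2 or WT3), with -0.07 without KO5. Dlgap2 (ENSMUSG00000047495, chr8:14095865-14847680) was at 0.0342 to 0.163 CPM over all mice, which is too few counts for a comparison. The processed pseudogene Gm3160 lies within Dlgap2 without sharing exon bases and was more abundant, at 1.54 to 2.203 CPM.

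**Figure D4:**
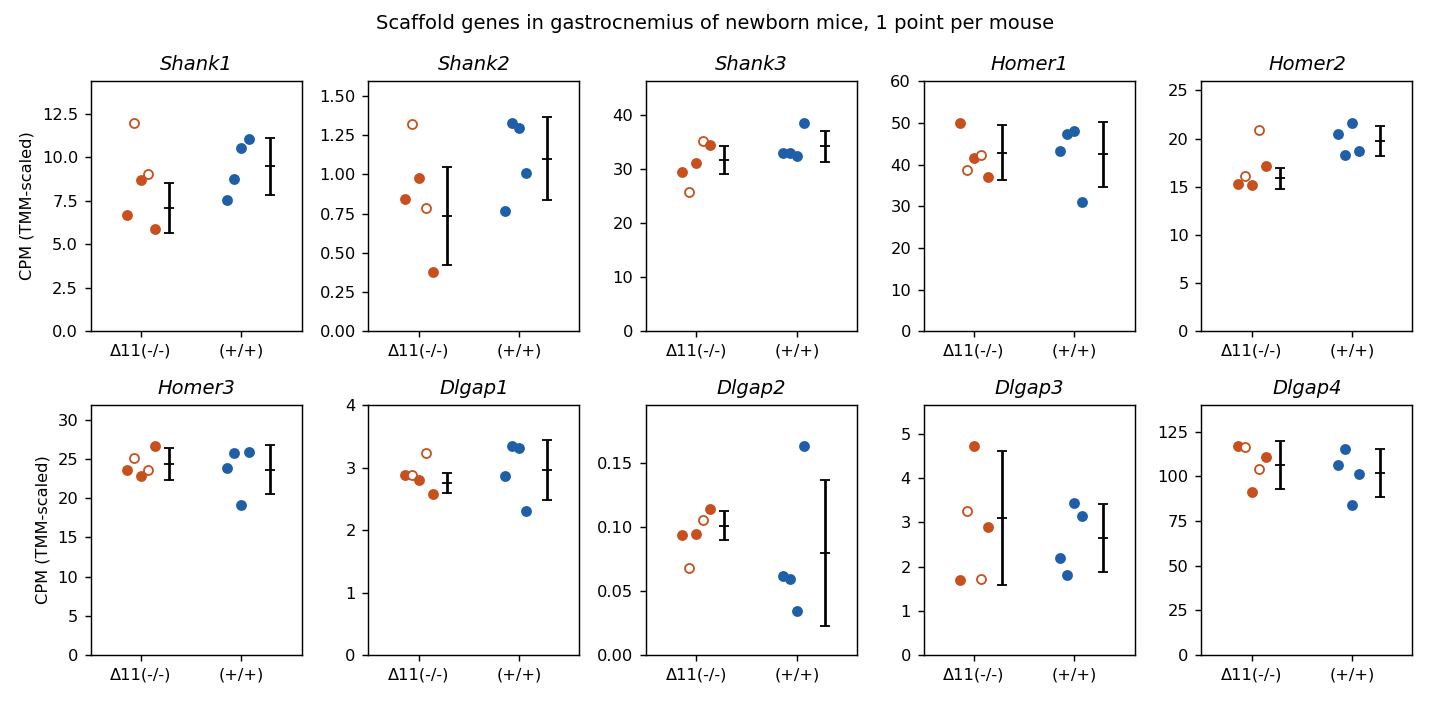
CPM of each scaffold gene (y axis, from 0), 1 point per mouse, for *Shank3Δ11(-/-)* in orange (KO2 and KO4 open) and *Shank3(+/+)* in blue; bars give the mean ± SD of KO1, KO3 and KO5 and of the 4 *Shank3(+/+)* mice. The filled orange points lie below all blue points only for Homer2, and KO4 lies among the blue points there.

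Over the families, 2 of the 9 members tested had an unadjusted p below 0.05 in edgeR, Shank1 and Homer2, both lower in the 3 *Shank3Δ11(-/-)* mice. Of all 21809 genes tested, 2.08% had such a p, 0.917% on the lower side and 1.16% on the higher. Homer2, 1 of the 9, had mice that did not overlap in CPM, where 2.84% of all genes did so and 1.3% were lower. With 9 members, 1 or 2 genes make up a large share, and no test of the list was made. In all 9 mice 0 members had an unadjusted p below 0.05 or did not overlap, against 2.03% (0.874% lower and 1.16% higher) and 0.686% of the 21735 genes tested there. At an FDR below 25% the count was 0 for members and 0 for all genes in both fits, and the lowest FDR of any gene was 0.881, in 3 against 4 mice. A log2 fold change below 0 was found in 5 of the 9 members, where 52.2% of all genes did, and their median was -0.11, beside -0.01 over all genes. In 5 against 4 mice 6 were below 0, where 49.5% of all genes were, and the median was -0.04.

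**Figure D5:**
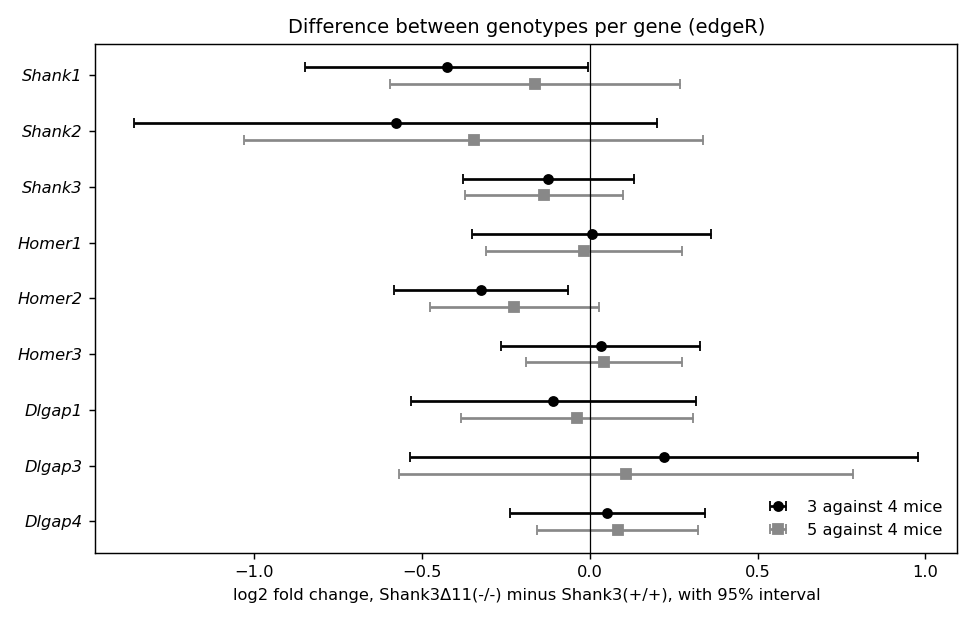
Log2 fold change of *Shank3Δ11(-/-)* against *Shank3(+/+)* with its 95% interval for the 9 members tested, in 3 against 4 mice (black circles) and 5 against 4 mice (grey squares). The black intervals of Shank1 and Homer2 end below 0, and every grey interval includes 0.

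Genes for the proteins that these scaffolds bind were examined in 3 lists, by RNA only. Of 12 genes for membrane-associated guanylate kinases, glutamate receptors and their regulators, 8 were tested and edgeR gave 0 with an unadjusted p under 0.05 in either direction, in 7 or in 9 mice, where 2.08% and 2.03% of all genes had one. The most abundant was Dlg1 (SAP97), at 5.57 RPKM. The glutamate receptor genes Grm5 and Grin1 were among those that did not pass the filter. The median log2 fold change was -0.10, against -0.01 for all genes, and -0.03 in 9 mice.

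Of 17 genes for calcium channels and NFAT factors that bind Homer or Shank, 15 were tested and 0 had such a p in either fit, beside the same 2.08% and 2.03% of all genes, with a median of 0.03 in both. Ryr1, the calcium release channel of skeletal muscle, was the most abundant at 31.6 RPKM. It differed by 0.04 on the log2 scale (interval -0.31 to 0.40), and by 0.04 in 9 mice. Nfatc4 followed at 7.13 RPKM.

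All 18 genes for actin-binding, Z-disc and adaptor partners were tested, and 1 was higher at an unadjusted p below 0.05 and 0 lower, with a median of -0.01 (0.01 in 9 mice). Of all genes tested, 1.16% were higher and 0.917% lower at this p. The higher gene was Actn3, the α-actinin of fast fibres, which is the second most abundant of the list at 144 RPKM after Actn2 at 556 RPKM. Actn3 was at 448 CPM in KO1, 415 in KO3 and 716 in KO5, at 379 in KO2 and 441 in KO4, and at 306, 218, 375 and 461 CPM in *Shank3(+/+)*. KO1 to KO4 lay between WT3 and WT4, and KO5 was above all others. The log2 fold change was 0.62 (standard error 0.27, edgeR p = 0.0413 and FDR = 1.00, exact permutation test p = 0.143), and in all 9 mice 0.50 (edgeR p = 0.0455). KO5 was again the mouse with the highest adipocyte and Schwann cell marker sums. Without it the log2 fold change was 0.33 in 3 against 4 mice and 0.31 in 5 against 4, and the unadjusted p of edgeR was above 0.05, as it was in 3 against 4 mice without WT1 (0.58) or WT2 (0.46). In 5 against 4 mice it was also above 0.05 without KO1, KO4, WT1, WT2 or WT3, with log2 fold changes from 0.33 to 0.55.

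The genes whose log2 CPM over the 9 mice was most like that of Shank3, by Pearson's r, were Polr2f (0.97), Gm5776 (0.96), Tomm5 (0.95), Bambi-ps1 (0.94) and Cd63 (0.94). Polr2f, a subunit shared by the RNA polymerases, lies on chromosome 15 as does Shank3, and Tomm5 belongs to the mitochondrial import pore. All points share the libraries and their scaling, and these 5 were the highest of all genes tested, so the values are a description only.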

How the data were processed

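Per the labels and methods, the authors mapped reads of 9 gastrocnemius libraries to mm10 with HISAT2, kept concordantly mapped reads and deposited raw counts per Ensembl gene from featureCounts. On annotation release, strandedness and multi-mapped reads nothing is given in the sources used here. Symbols, positions and exon lengths came from GENCODE M21 (GRCm38), and sequences from its transcripts. Genes were filtered with filterByExpr (minimum count 10, total 15), scaled by TMM and tested with a robust, 2-sided quasi-likelihood fit in edgeR 4.0.16 (R 4.3.3), with Benjamini-Hochberg adjustment over all genes tested. The calling rule was p below 0.05 with FDR below 25%. CPM of all figures use 1 scaling of the 9 mice, and exact permutation tests compare mean log2 CPM (prior count 2, smallest p 0.0286 for 3 against 4 and 0.00794 for 5 against 4). The fit was tested on simulated data. Members and gene lists were chosen with earlier results of these data known. All members were named, with Dlgap5, the 2 most abundant of each partner list, those with p below 0.05, 5 genes most like Shank3, overlapping genes above 0.1 CPM and Xist. A few genes under this rule are not reported here. Alternatives were other filters, scalings, limma 3.58.1, DESeq2 1.42.0, a replicate block, an Xist covariate, thinned counts, added mice and each mouse left out. P-values measure the spread between these mice, whose litters are not labelled.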

Additional observations from a re-analysis of the deposited data

Results flagged for a closer look

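The CPM of Shank3 in WT4 was 38.5, far above the other *Shank3(+/+)* mice at 32.5 to 32.9 CPM. Its gap to the nearest mouse was 0.93 of the group's range, where Dixon's 95% critical value for 4 samples is 0.829. This was the single value that stood apart in this way among the 10 genes in both genotypes. Chance gives such a gap in about 1 in 20 groups, and 20 groups were examined. Without WT4 the log2 fold change of Shank3 was -0.06. WT4 also had the highest keratinocyte marker sum, whose part in this value was not tested.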

How the results depend on the processing

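Shank1, Shank2, Shank3 and Homer2 kept a log2 fold change below 0 under all 24 alternatives. Shank1 ranged from -0.60 to -0.07 and lost its p below 0.05 in 15 of them. Homer2 ranged from -0.47 to -0.20 and lost its p below 0.05 in 8, with edgeR, DESeq2 or limma p from 0.00348 to 0.127. The lowest value and the lowest p of Homer2 came from the replicate block in 7 mice. Members with p below 0.05 numbered 0 in all 9 mice, 1 with upper quartile scaling, limma-voom, edgeR without robust estimation or thinned counts, and 0 to 1 with a mouse left out. With alternatives chosen after seeing the data they numbered 1 with KO2 added and 0 with KO4 added or with the Xist covariate in 9 mice. Over all genes, 972 had p below 0.05 with no filter on low counts, 745 with KO4 added, and 224 (without KO5) to 968 (without KO1) with a mouse left out. At an FDR below 25% there was 1 gene with no filter, 6 with DESeq2, 1 with the Xist covariate and 0 to 15 with a mouse left out. The cause of these moves was not tested.

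Replicate numbers are not said to pair the mice, and pairs were not used. Deviations of same-numbered mice correlated at 0.37 (KO1 and WT1), 0.05 (KO2 and WT2), 0.36 (KO3 and WT3) and 0.10 (KO4 and WT4). The p-values of the main fit take no account of this. In 7 mice only KO1 with WT1 and KO3 with WT3 share a number, so a replicate block takes genotype differences from these alone. With the replicate block, 1 member (Homer2) and 844 genes had p below 0.05 in 7 mice and 9 passed the FDR. In 9 mice (added later) 0 members had p below 0.05 and 2 genes passed the FDR. KO1, KO3 and KO4 correlated best with the *Shank3(+/+)* mouse of their own number, and KO2 with WT1. The block gave Shank1 -0.23 in 7 mice and -0.07 in 9, and Shank2 -0.16 in both. Under the block Homer1 was at -0.0044 in 7 mice and Dlgap1 at 0.0091 in 9.

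Homer1 turned to -0.017 in all 9 mice, -0.012 with library totals alone, -0.024 with KO2 added and -0.021 with the Xist covariate in 9 mice. With a mouse left out it ranged from -0.12 to 0.10, Homer3 from -0.047 to 0.085, Dlgap4 from -0.021 to 0.15 and Dlgap3 from -0.22 to 0.52. Few counts limit Dlgap2, which could not be tested, and Shank2.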
